A study of Homo sapiens with 10 samples.

Results

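The genes described here are 10 of 18034 listed in the data, grouped as DUSP phosphatases and ERK feedback inhibitors. They comprise the dual-specificity phosphatases DUSP1, DUSP4, DUSP5, DUSP6 and DUSP7 and the Sprouty and Spred genes SPRY2, SPRY4 and SPRED1. The others are the EGF receptor inhibitor ERRFI1 and the pseudokinase gene TRIB1. Their effect on ERK was not measured here. The 10 genes were chosen by gene symbol, and also from measured values. DUSP1 and DUSP5 were known from earlier results of these data to differ in direction between the CDK9 lines. All 10 passed the filter on low values in both experiments. The cells were HCT116, an established human colorectal carcinoma line. In the inhibitor experiment, cells received DMSO (2 libraries) or EPZ-5676, an inhibitor of the histone H3 methyltransferase DOT1L, at 10 µM for 72 h (2 libraries, labelled EPZ). In the knockdown experiment every line carried a CDK9 knockdown by shRNA, and 3 lines had 2 libraries each, namely EV, WT, reconstituted with wild-type CDK9, and K56A, reconstituted with the CDK9 mutant of that name. The labels do not expand EV, do not name the promoter of the constructs and do not say whether a line is a clone, and no line without the knockdown belongs to that experiment. CDK9 is the kinase of P-TEFb, a factor that lets RNA polymerase II leave its pause near the start of a gene.

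ERK, the last kinase of the RAS-RAF-MEK-ERK cascade, induces many of its own inhibitors, so their transcripts are often read as a gauge of pathway output. Dual-specificity phosphatases remove phosphate from both the threonine and the tyrosine that activate MAP kinases. DUSP1, DUSP4 and DUSP5 act in the nucleus, while DUSP6 and DUSP7 act in the cytoplasm and prefer ERK. Sprouty and Spred proteins act upstream, between receptors and RAF, and ERRFI1 binds the EGF receptor kinase itself. Many of these transcripts are short-lived and belong to the early response to growth factors.

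The stretch before the start of DUSP1, the member that was lower in both lines, is shown beside that of ERRFI1, a member that was higher in them, and beside those of FOSB and FOS, the genes whose pattern over the knockdown libraries was most like that of DUSP1. Each is the 250 bases before a RefSeq start site (GRCh38.p14), read 5′ to 3′ along the gene's strand. Capitals mark matches, on either strand, to the cAMP response element TGACGTCA, its shorter core TGACG, the AP-1 site TGANTCA, the E-box CACGTG, the TATA box TATAAA, the ETS site CCGGAA and the CArG box. The core lies within the full element, so the 2 are not independent.
DUSP1, chr5:172771196-172771445, minus strand: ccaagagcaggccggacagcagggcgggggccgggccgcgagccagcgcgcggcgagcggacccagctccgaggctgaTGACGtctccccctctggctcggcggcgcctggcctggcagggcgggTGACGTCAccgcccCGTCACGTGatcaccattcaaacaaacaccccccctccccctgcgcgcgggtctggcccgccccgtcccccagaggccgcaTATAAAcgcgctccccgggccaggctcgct
FOSB, chr19:45467746-45467995, plus strand: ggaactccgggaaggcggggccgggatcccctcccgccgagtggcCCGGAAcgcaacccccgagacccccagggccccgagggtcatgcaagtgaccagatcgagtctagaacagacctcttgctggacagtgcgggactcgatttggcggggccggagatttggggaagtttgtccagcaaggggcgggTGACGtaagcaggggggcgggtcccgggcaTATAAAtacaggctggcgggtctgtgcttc
FOS, chr14:75278578-75278827, plus strand: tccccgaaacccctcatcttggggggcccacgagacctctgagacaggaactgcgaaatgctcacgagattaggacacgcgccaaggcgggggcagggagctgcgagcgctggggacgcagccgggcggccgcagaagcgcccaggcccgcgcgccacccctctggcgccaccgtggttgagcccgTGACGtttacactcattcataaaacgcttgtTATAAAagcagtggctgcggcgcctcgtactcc
ERRFI1, chr1:8026310-8026559, minus strand: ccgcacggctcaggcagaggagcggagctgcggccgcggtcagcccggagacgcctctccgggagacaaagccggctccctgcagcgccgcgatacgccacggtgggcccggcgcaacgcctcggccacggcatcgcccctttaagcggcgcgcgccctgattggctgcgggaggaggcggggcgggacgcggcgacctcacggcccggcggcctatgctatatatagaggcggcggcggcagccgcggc

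The DUSP1 stretch held the full element TGACGTCA at -125 to -118 from the start, which 1.65% of 35097 RefSeq stretches of this length held. It also held further cores (21.2% of stretches) at -172 and -111, an E-box (6.34%) at -108 and a TATA box (10.7%) at -30. FOSB had a core at -60 and FOS at -64, each with a TATA box at -30 and -33, and FOSB also had an ETS site (14.5%) at -205. ERRFI1, DUSP6, DUSP7 and SPRED1 had no match to any of the 7 motifs, while SPRY2 had a core and an ETS site and SPRY4 a core. Only the exact letters were searched. The ERRFI1 stretch holds the run tatatata close to its start site, which TATAAA does not match, so ERRFI1 cannot be called free of a TATA box. The AP-1 site (6.57%) and the CArG box (1.16%) matched in none of the 9 stretches of the 7 members with a sequence. DUSP5, DUSP4 and TRIB1 had no sequence here, so DUSP1 cannot be set beside DUSP5. Of the other genes like DUSP1 in pattern, RAB4B had no match to any motif and INSIG2 had a core and ETS sites. Of the genes like DUSP5 with a sequence, GLRX2 had a core and, in another stretch, an E-box. RAP2C had an E-box, and PHTF1 had an ETS site and, in another stretch, a CArG box. Neither RAP2C nor PHTF1 had a core. The E-box was thus not particular to DUSP1. A match is a description of letters, and no binding was measured.

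The libraries and the targeted genes were checked first. Relative depth, read from repeating ratios of low values, ran from 1 to 1.29 times DMSO replicate 1 in the inhibitor experiment and from 0.868 to 1.21 times EV replicate 1 in the knockdown experiment. CDK9 stood at 16.4 and 19.4 FPKM in EV, with 3060 and 2976 for WT and 2611 and 2500 for K56A. In the inhibitor experiment it stood at 37.6 to 43.9 FPKM, so CDK9 RNA in WT and K56A was far above that level. DOT1L also differed between the lines, at 324 and 343 FPKM in EV, with 578 and 568 for WT and 733 and 703 for K56A, against 10.4 to 12.6 in the inhibitor experiment. Of 7 colon epithelial markers, 6 were listed, with sums of 1609 to 1727 FPKM in the knockdown libraries and 2523 to 2754 in the inhibitor libraries; VIL1 was not listed. Of the 5 immune markers, CD14 alone was listed, in the knockdown tables, at no more than 0.39 FPKM. The endothelial sum was at most 0.257 FPKM. Fibroblast markers COL1A1 and PDGFRB were listed, and COL1A2, COL3A1 and DCN were not. Their sum was 27.6 to 30.0 FPKM in EV, 33.2 to 34.2 in WT and 34.6 to 36.3 in K56A, nearly all COL1A1. The mitochondrial share of FPKM was 27.6% and 27.9% for EV, 27.2% and 27.7% for WT, and 25.4% and 25.6% for K56A. The part of these differences in the results below was not tested. Fewer cells and less RNA per cell cannot be told apart in bulk samples.

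**Figure D1:**
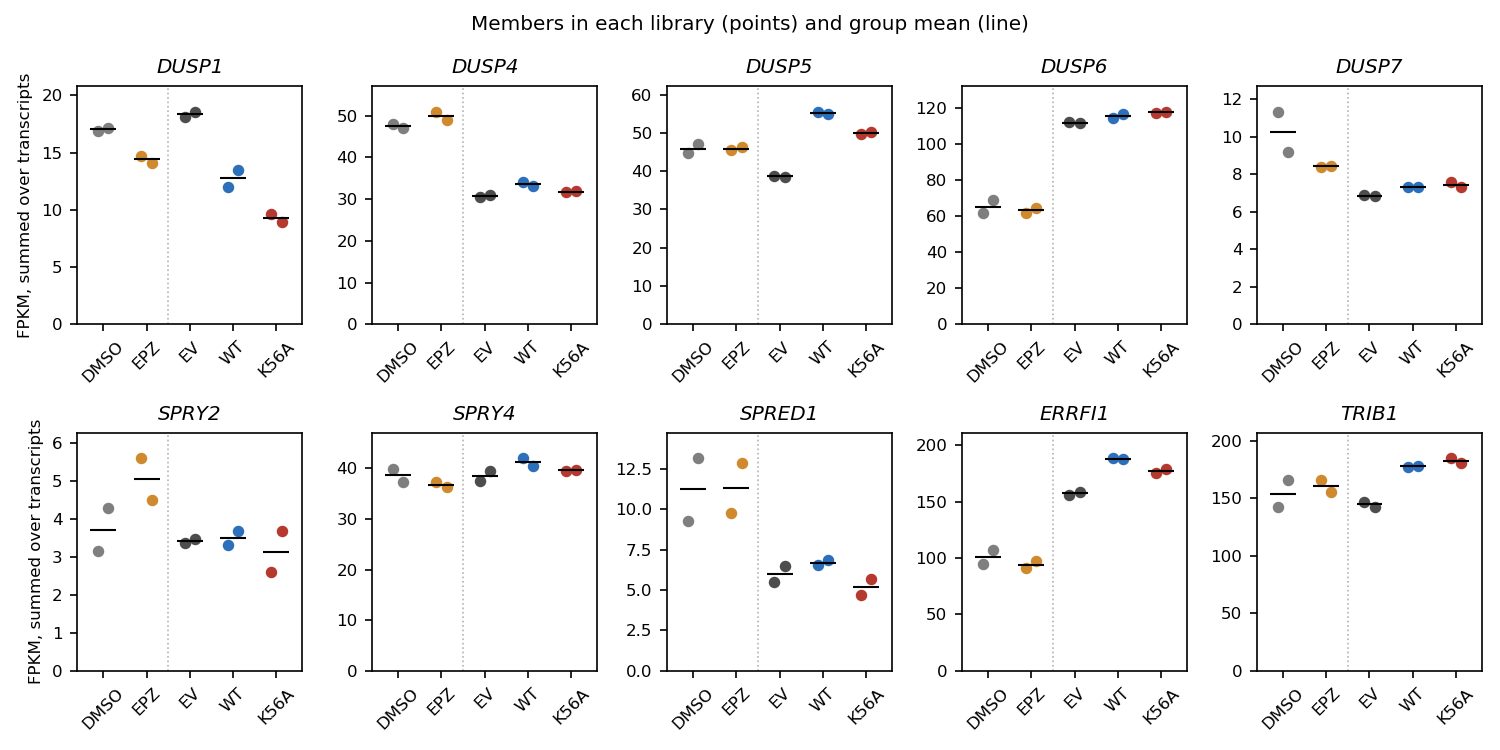
FPKM (y axis, from 0) of each of the 10 genes in every library, with the mean of each group as a line and a dotted line between the experiments, which were not tested against each other. DUSP1 is lowest in K56A and DUSP5 highest in WT, while DUSP6 and SPRY4 vary little among EV, WT and K56A.

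DUSP1, an immediate early phosphatase that acts on p38 and JNK as well as ERK, was lower in WT and K56A than in EV. It stood at 18.1 and 18.6 FPKM in EV, at 12.02 and 13.48 in WT and at 9.66 and 8.96 in K56A. The 3 groups did not overlap, and K56A was lowest. Its log2 fold change over EV was -0.51 ± 0.08 (SE) in WT and -0.94 ± 0.08 in K56A. These correspond to ratios of 0.702 and 0.52 on the log2(FPKM + 0.5) scale.

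DUSP5, a nuclear phosphatase with ERK as its main substrate, was higher in both lines than in EV. It stood at 38.8 and 38.5 FPKM in EV, at 55.6 and 55.0 in WT and at 49.8 and 50.1 in K56A. The groups did not overlap, and WT rather than K56A was highest. The log2 fold change over EV was 0.51 ± 0.04 in WT and 0.37 ± 0.04 in K56A, opposite in sign to that of DUSP1. DUSP4, the third nuclear phosphatase, stood at 30.5 and 31.0 FPKM in EV, at 34.1 and 33.2 in WT and at 31.6 and 31.8 in K56A. Its groups did not overlap either, but its changes were small, at 0.13 ± 0.05 in WT and 0.05 ± 0.05 in K56A.

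Because the directions of DUSP1 and DUSP5 helped to choose the genes, no p-value is given for the members in the knockdown comparisons. The ratio of DUSP5 to DUSP1 FPKM was 2.14 and 2.07 for EV, 4.63 and 4.08 for WT, and 5.15 and 5.6 for K56A. The mean log2 ratio was higher than in EV by 1.04 in WT (spread 0.13, from the SDs of both groups) and by 1.35 in K56A (spread 0.09). In the inhibitor experiment the ratio was 2.65 and 2.74 with DMSO and 3.09 and 3.28 with EPZ, a log2 difference of 0.24 (spread 0.07). There the ratio moved with DUSP1, since DUSP5 had 44.7 and 47.1 FPKM with DMSO and 45.5 and 46.2 with EPZ.

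**Figure D2:**
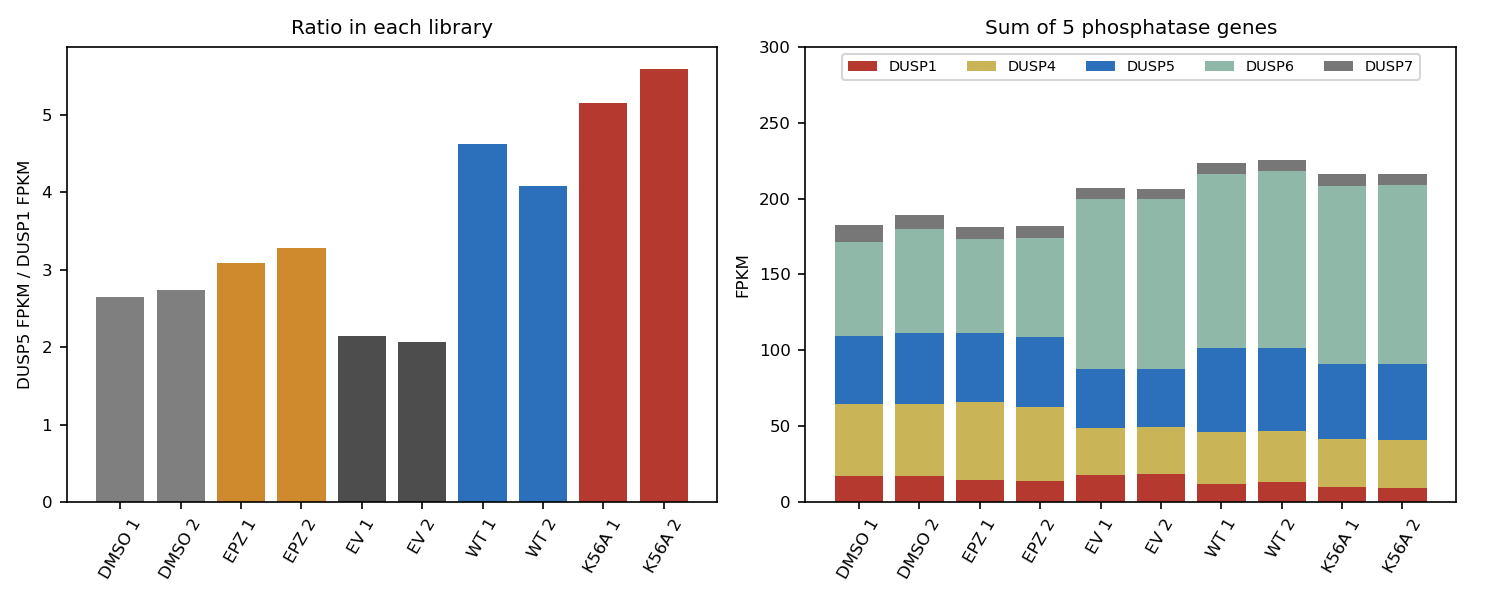
Left, the ratio of DUSP5 to DUSP1 FPKM in each library (y axis from 0). Right, FPKM of 5 phosphatase genes stacked, with DUSP6 the largest block in every library. The ratio is near 2 in EV and between 4.08 and 5.6 in WT and K56A, while the stacked sum differs less.

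The sum of the 5 phosphatases was 207 FPKM in both EV libraries, 224 and 226 with WT, and 216 and 217 with K56A. DUSP1 made up 8.76% and 8.99% of it for EV, 5.37% and 5.97% for WT, and 4.47% and 4.14% for K56A. DUSP5 made up 18.8% and 18.6%, 24.8% and 24.3%, and 23.0% and 23.2% in the same groups. The DUSP5 gain in FPKM was thus larger than the DUSP1 loss.

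The cytoplasmic ERK phosphatases differed little across the knockdown lines. DUSP6, a common readout of ERK activity, stood at 112 and 112 FPKM in EV, at 115 and 117 in WT and at 118 and 118 in K56A. Its groups did not overlap, but the log2 fold changes were 0.05 ± 0.04 and 0.07 ± 0.04. DUSP7 stood at 6.90 and 6.83 FPKM in EV, between 7.30 and 7.34 in WT and between 7.30 and 7.57 in K56A.

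The Sprouty and Spred genes differed little or overlapped between the lines and EV. SPRY4 stood at 37.6 and 39.5 FPKM in EV, at 42.0 and 40.4 in WT and at 39.5 and 39.8 in K56A. SPRY2, a low-level gene, overlapped between all pairs of these groups, from 2.60 to 3.70 FPKM. SPRED1, which brings neurofibromin to RAS, stood at 5.48 and 6.52 FPKM in EV, at 6.53 and 6.88 in WT and at 4.70 and 5.70 in K56A, with a log2 difference of K56A from WT of -0.34 ± 0.12.

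ERRFI1 and TRIB1 were the 2 members with the highest FPKM in every group. ERRFI1 stood at 156 and 158 FPKM in EV, at 189 and 187 in WT and at 175 and 179 in K56A. WT was highest and no group overlapped another. The log2 fold changes over EV were 0.26 ± 0.03 in WT and 0.17 ± 0.03 in K56A. TRIB1, a pseudokinase that binds the ubiquitin ligase COP1 and MEK, stood at 147 and 143 FPKM in EV, at 178 and 178 in WT and at 185 and 181 in K56A. Its log2 fold changes were 0.29 ± 0.04 and 0.33 ± 0.04, so K56A was at least as high as WT.

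**Figure D3:**
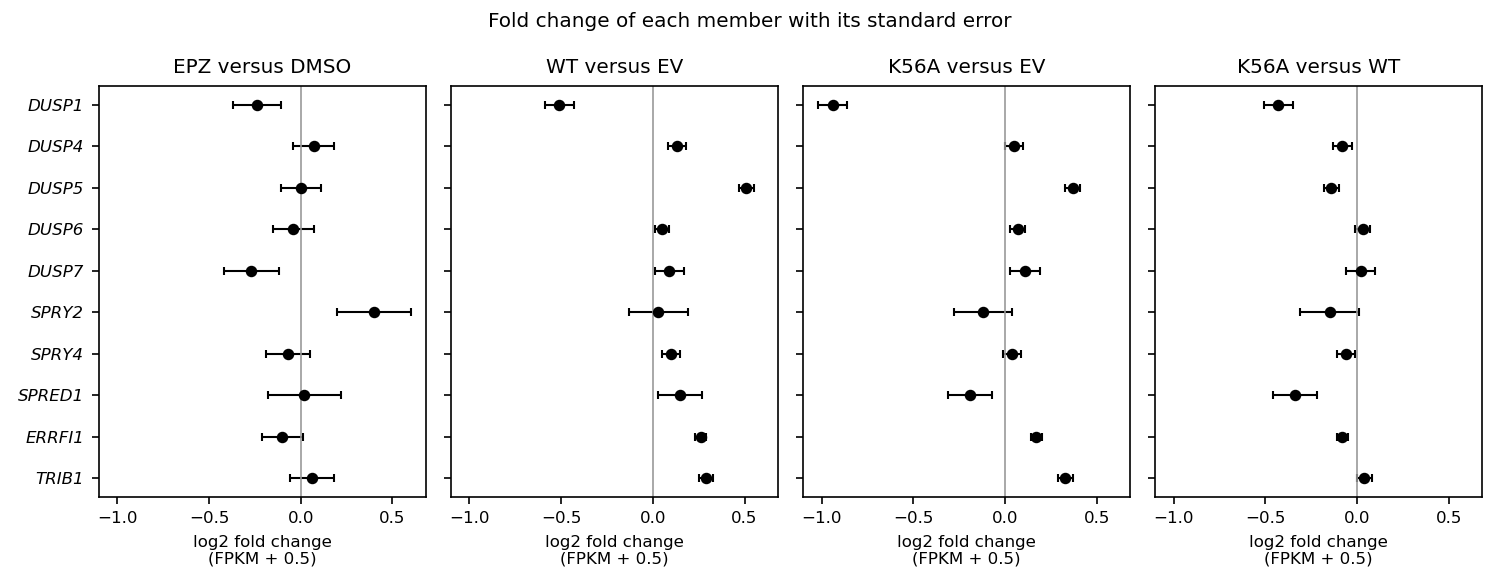
Log2 fold change (x axis) of each gene with its standard error, in the 4 comparisons, as fitted by limma. DUSP1 lies left of 0 in all 4 panels, and DUSP5 and TRIB1 lie right of 0 in WT and in K56A over EV.

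Across all genes, few passed the limma threshold, an adjusted p of 0.05. In WT versus EV, 0.536% passed, 0.0778% higher and 0.458% lower. In K56A versus EV, 0.787% of all genes passed, 0.19% higher and 0.597% lower. By this threshold 4 of the 10 members were counted in WT versus EV and 3 in K56A versus EV, and without any 1 library 0 to 1 and 0 to 2. Nothing is read from these counts, because the values behind them helped to choose the members. Rescaling each library by its median ratio turned the 22 higher and 69 lower genes of K56A versus EV into 15 and 94, and no member in these 2 comparisons changed direction. Both comparisons use the same EV libraries, so they are not independent of each other.

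Of the members, 9 of 10 did not overlap between WT and EV and 7 of 10 between K56A and EV, where 43.5% and 45.6% of all genes did not. Nothing is read from these overlap counts, since the same values helped to choose the members. With any 1 of the 6 libraries left out, the directions of DUSP1, DUSP5, ERRFI1 and TRIB1 did not change. In WT versus EV the log2 fold change ran from -0.59 to -0.43 for DUSP1, from 0.50 to 0.52 for DUSP5, from 0.24 to 0.27 for ERRFI1 and from 0.27 to 0.32 for TRIB1. In K56A versus EV it ran from 0.36 to 0.37 for DUSP5 and from 0.31 to 0.36 for TRIB1.

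Direct comparison of K56A with WT gave 0 members past the limma threshold, where 0.0605% of all genes passed, 0.0173% higher and 0.0432% lower. At an unadjusted limma p under 0.05 there were 4 of 10 members, against 1504 of 11566 genes. DUSP1 differed by -0.43 ± 0.08 on the log2 scale, DUSP5 by -0.14 ± 0.04 and ERRFI1 by -0.08 ± 0.03. Of the members, 8 of 10 did not overlap between the lines, against 45.4% of all genes. Nothing is read from these counts either, because values of these lines helped to choose the members.

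The directions that helped to choose the members were those between the CDK9 lines, so all 10 members were tested in the inhibitor comparison. Earlier results of these data were known at the choice, so these tests may not be independent of it. No member passed in limma or had an unadjusted limma p under 0.05, and no member transcript passed in the authors' deposited table. The 13130 genes tested gave 765 with an unadjusted p under 0.05, and 0.00762% passed after adjustment, 0% higher and 0.00762% lower. DUSP1 had 16.9 and 17.2 FPKM with DMSO and 14.7 and 14.1 with EPZ, which is a log2 difference of -0.24 ± 0.13 (limma adjusted p = 0.756). The groups did not overlap. DUSP5 differed by -0.00 ± 0.11 (limma adjusted p = 0.997), DUSP6 by -0.04 ± 0.11 (0.931), ERRFI1 by -0.10 ± 0.11 (0.828) and TRIB1 by 0.06 ± 0.12 (0.892).

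SPRY2 had the largest log2 difference, 0.40 ± 0.20 (limma adjusted p = 0.756), from 3.15 and 4.30 FPKM in DMSO to 5.62 and 4.51 in EPZ. It passed when DMSO replicate 2 was left out, at 0.60 with a limma adjusted p of 0.038, a setting in which 1560 genes passed, and its lowest value without 1 library was 0.21. DUSP7 stood at 11.3 and 9.20 FPKM in DMSO against 8.41 and 8.43 in EPZ, -0.27 ± 0.15 on the log2 scale, and -0.41 to -0.12 without any 1 library. DUSP4 (0.07 ± 0.11), SPRY4 (-0.07 ± 0.12) and SPRED1 (0.02 ± 0.20) lay near 0. Of the 10 members, 5 did not overlap between the groups, against 37.4% of all genes. Standard errors of 0.11 to 0.20 set the size of change that 2 libraries per group could show, so missing the threshold does not show that the levels were equal.

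The levels of the 10 genes kept nearly the same order in each group. From the highest down, EV and WT ran ERRFI1, TRIB1, DUSP6, DUSP5, SPRY4, DUSP4, DUSP1, DUSP7, SPRED1 and SPRY2, on the FPKM scale, which is per length. In K56A only TRIB1 and ERRFI1 changed places. In DMSO and EPZ the order was TRIB1, ERRFI1, DUSP6, DUSP4, DUSP5, SPRY4, DUSP1, SPRED1, DUSP7 and SPRY2. Neighbours overlapped between libraries for DUSP5 and SPRY4 in EV and for SPRED1 and DUSP7 in DMSO, and for no other neighbours in any group.

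Transcripts of a gene did not all share a direction. DUSP1 and DUSP5 are each listed with a single coding transcript. In the authors' deposited table, 5 of 26 member transcripts were higher and 1 lower at an adjusted p under 0.05 in WT, and likewise in K56A, against 3.33% and 3.8% of all transcripts; these are the comparisons that chose the members. ERRFI1-202, the second coding transcript, changed by 0.36 in WT and ERRFI1-201, the main one, by 0.19, both in the authors' deposited table. TRIB1-202 and TRIB1-201 changed by 0.39 and 0.21 in WT in the authors' deposited table. The minor ERRFI1-203 stood at -0.36 and SPRY4-201 at -0.25 there, against 0.60 for SPRY4-203, and none of these 3 had an adjusted p under 0.05 in the authors' deposited table. DUSP6 divided its FPKM among 3 coding transcripts. DUSP6-202 was 0.21 higher in K56A over EV in the authors' deposited table, while DUSP6-201 was -0.10. In WT versus EV, DUSP6-202 was -0.16 there. Nothing is read from this split, because values of these comparisons helped to choose the members. DUSP6-202 stood at 26.3 and 26.6 FPKM in EV and 32.0 and 30.7 in K56A.

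The genes tested in the pathway around the members showed few changes. Over all 11566 genes, 1565 in WT versus EV, 1749 in K56A versus EV and 1504 in K56A versus WT had an unadjusted limma p under 0.05. Of 5 other MAP kinase phosphatases tested in the knockdown fit, none passed in any comparison (0 in WT versus EV, 0 in K56A versus EV and 2 in K56A versus WT had an unadjusted p under 0.05). In K56A versus EV their median log2 fold change was 0.20, against 0.026 for all genes. Of 10 atypical phosphatases listed, 5 were tested in that fit and none passed in limma (1, 1 and 0 at the unadjusted p). Of 18 other inhibitors listed, 13 were tested there. Of 17 genes of the cascade itself 13 were tested, which leaves out BRAF, KSR1, MAPK3 and RPS6KA1. None of those tested passed in limma (0, 1 and 1, and 2, 1 and 1, at the unadjusted p), and median log2 fold changes lay between -0.05 and 0.05. Of 7 EGF receptor and ligand genes listed, 6 were tested and none passed in limma (2, 2 and 0 at the unadjusted p). EREG, which encodes epiregulin, stood at a log2 fold change of -0.20 ± 0.05 in WT (limma adjusted p = 0.177). In EPZ versus DMSO none of these lists had a gene that passed in limma, with 0 to 2 genes of a list at an unadjusted p under 0.05. FOSL1, an ERK-induced AP-1 gene, had the smallest p of them, at -0.67 ± 0.13 (limma adjusted p = 0.756).

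**Figure D4:**
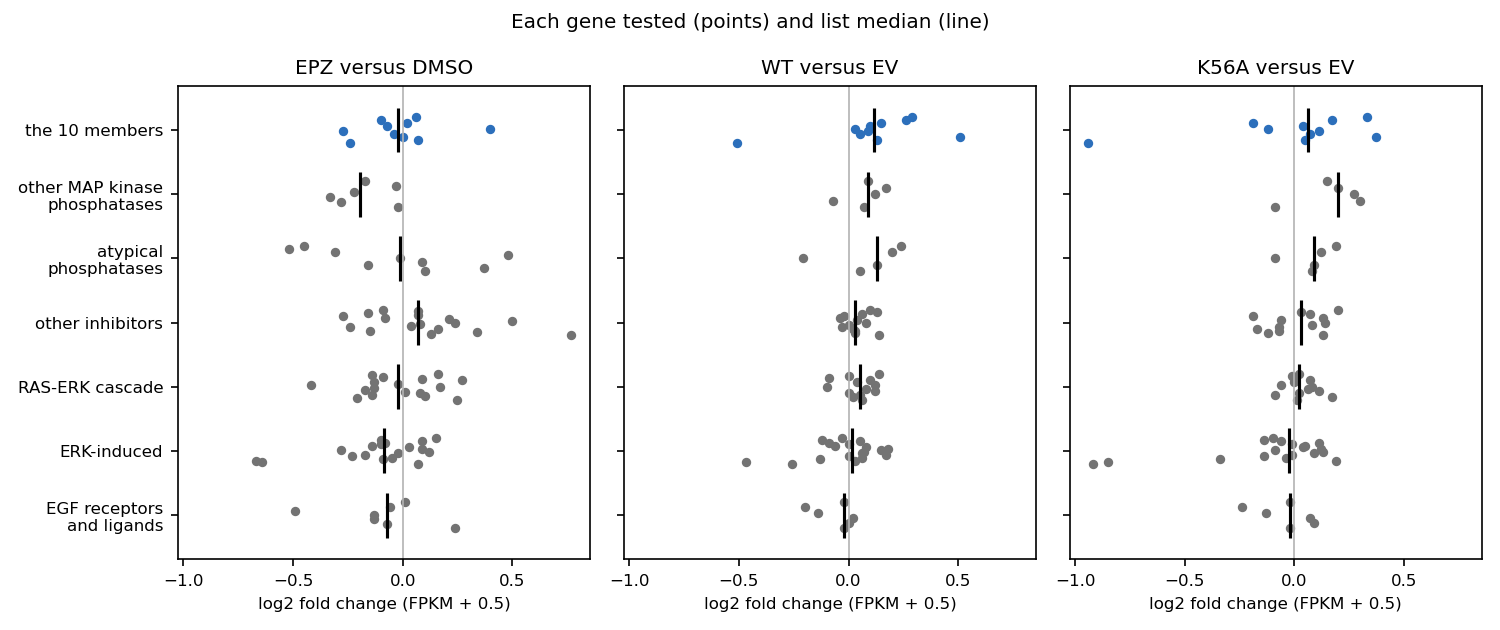
Log2 fold change (x axis) of every gene tested in 7 lists, with the list's median as a black line, in 3 comparisons. The 10 members are blue, and DUSP1 is their lowest point in WT and in K56A over EV. In the ERK-induced list FOS and FOSB are the 2 lowest points there.

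Among 18 ERK-induced transcripts, FOS and FOSB fell in all 3 knockdown comparisons. The list was drawn up with earlier results of these data known, so the p-values below may not be independent of that choice. FOSB fell in WT versus EV by 0.47 ± 0.04 on the log2 scale (limma adjusted p = 0.0108) and in K56A versus EV by 0.85 ± 0.04 (limma adjusted p = 0.000106). FOS fell by 0.26 ± 0.04 (0.0352) and 0.92 ± 0.04 (2.94e-05) in limma. JUN fell in K56A versus EV by 0.34 ± 0.05 (limma adjusted p = 0.036), and 0 of 18 passed higher in limma in either comparison. At an unadjusted p under 0.05 there were 5 of 18 in WT versus EV, 10 in K56A versus EV and 7 in K56A versus WT. Of all 11566 genes, 1565, 1749 and 1504 were under it in the same comparisons. FOSL1, of the same family, had log2 fold changes over EV of 0.03 ± 0.05 in WT and 0.19 ± 0.05 in K56A (limma adjusted p = 0.868 and 0.183). In K56A versus WT, FOS fell by 0.67 ± 0.04 (limma adjusted p = 0.00117) and FOSB by 0.38 ± 0.04 (0.0329). EGR1, at 254 to 260 FPKM in EV and WT, had a log2 fold change of 0.00 ± 0.03 in WT. In K56A the EGR1 log2 fold change was -0.14 ± 0.03 over EV and -0.14 ± 0.03 over WT (limma adjusted p = 0.121 and 0.17). The K56A libraries overlapped neither group. Without 1 library, JUN in K56A versus EV and FOS in WT versus EV lost the call in all 6 cases (-0.40 to -0.29 and -0.26 to -0.25). FOSB lost it in WT versus EV without any 1 EV or WT library (-0.49 to -0.44) and in K56A versus WT without any 1 K56A or WT library (-0.41 to -0.36).

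FOSB and FOS were also the genes nearest to DUSP1 in pattern. Likeness was the root mean square difference of log2(FPKM + 0.5), centred on EV, over the 6 knockdown libraries and 8354 genes with a mean of at least 5 FPKM. The nearest to DUSP1 were FOSB (0.073), FOS (0.154), RAB4B (0.249), AL121845.2 (0.268) and INSIG2 (0.271). FOSB stood at 112 and 109 FPKM in EV, at 78.2 and 81.0 in WT and at 61.7 and 60.2 in K56A. The nearest to DUSP5 were RAP2C (0.070), GLRX2 (0.079), CCDC91 (0.096), PHTF1 (0.103) and SENP2 (0.113), with TRIB1 at rank 9 (0.128) and ERRFI1 at rank 85 (0.186).

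**Figure D5:**
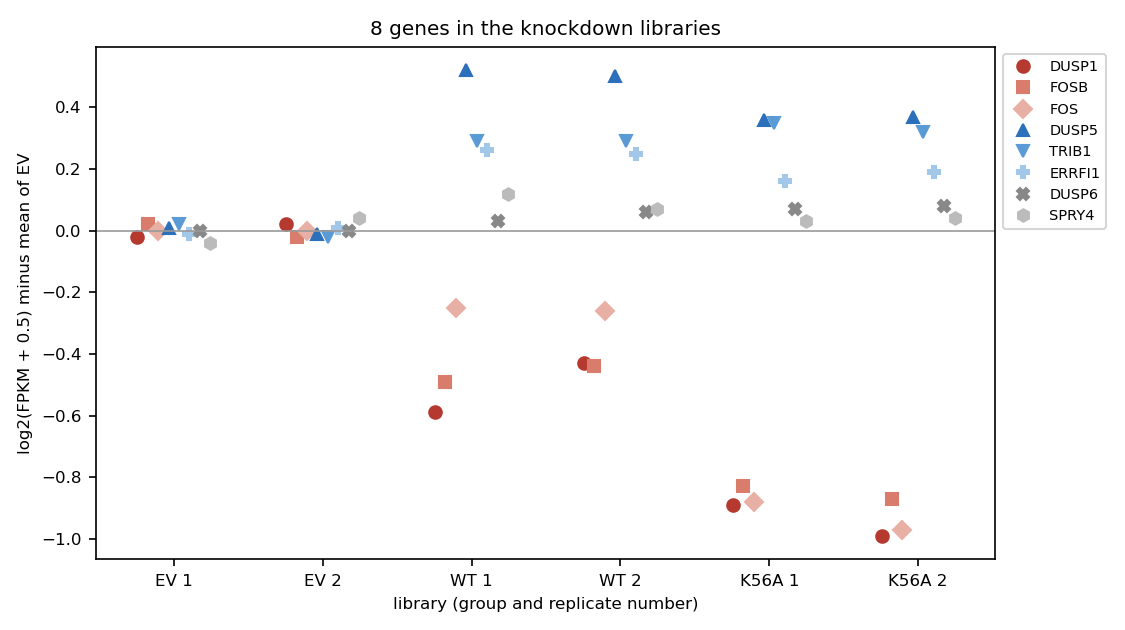
Log2(FPKM + 0.5) minus the EV mean (y axis) of 8 genes in each of the 6 knockdown libraries; points are set side by side within a library. DUSP1, FOSB and FOS lie below 0 in WT and lower in K56A, while DUSP5, TRIB1 and ERRFI1 lie above 0 in both and DUSP6 and SPRY4 stay near it.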

How the data were processed

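Per the labels' protocols, RNA was taken from HCT116 cells with TRIzol, and TruSeq mRNA libraries were sequenced. The authors deposited transcript-level FPKM, that is, fragments scaled to transcript length and to library total, in 3 tables of 4 libraries, so the unit is FPKM and the depth is unknown. Per the file headers, the authors ran edgeR on the inhibitor samples and DESeq2 on the knockdown samples, giving log2 fold changes with raw and adjusted p-values. Per the submitters' processing notes, the tools included STAR 2.7.1a, RSEM 1.3.3, DESeq2 1.32.0 and Trim Galore 0.6.6 with build GRCh38. The strand setting is not given in the sources used here. Another 4 columns of group summaries were not used.

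Transcript FPKM were summed per gene. EV libraries stand in both knockdown tables, differing by a factor of 1.0007 for replicate 1 and 1.0006 for replicate 2, so K56A was rescaled by the mean factor and joined with EV and WT over the 69086 shared transcripts. A gene entered a fit with FPKM of 1 or more in 2 or more libraries. Values of log2(FPKM + 0.5) were fitted by limma 3.58.1 (under R 4.3.3), using an intensity trend and Benjamini-Hochberg adjustment at 0.05, two-sided. The inhibitor fit held 13130 genes. The knockdown fit held 6 libraries and 11566 genes. Adding the pseudocount understates changes of low genes. Simulated data were used to test the scripts. Other steps used Python 3.11.15 with numpy 2.4.6, pandas 2.3.3 and, for plots, matplotlib 3.10.9.

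A gene was left out of the knockdown fit when over 5% of its FPKM lay in transcripts of 1 table, which removed 2284 of 13850 genes. No member lost any FPKM to this rule. The wording of the rule allows several forms. In all, 5 forms were computed after the data were seen, and the form used, the largest share over the groups of a table, was kept because its gene count equals that of an earlier processing of these files. The other 4 forms are reported as alternatives.

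Members and gene lists were chosen with earlier results of these data known. The rule for named genes took the 10 members, CDK9 and DOT1L, list genes that passed (or the 2 with the smallest p per list), the 5 genes most like DUSP1 and DUSP5, and transcripts with at least 5% of a member's FPKM. From these, only the genes that illustrate a result are named, and SPRY1 transcripts were picked after their values were seen. The motifs and the choice of windows to print were also set after earlier results were known. Whether the replicates came from separate cultures is not in the labels. The p-values therefore reflect only how far these samples spread, which may be technical.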

Additional observations from a re-analysis of the deposited data

How the results depend on the processing

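Main counts of genes past the limma threshold were 1 in EPZ versus DMSO, 62 in WT versus EV, 91 in K56A versus EV and 7 in K56A versus WT, and the cause of the changes below was not tested. Without the filter on low values the counts were 0, 40, 55 and 1. Without the intensity trend they were 0, 1, 4 and 0, and the members past it fell to 0 in both comparisons with EV. With protein-coding transcripts only, they were 3, 37, 41 and 1. In its own table, WT versus EV gave 10 genes and 1 member, and K56A versus EV gave 22 genes. A pseudocount of 0.1 gave 0 in EPZ versus DMSO. Leaving out 1 library gave 34 to 1560, 2 to 11, 6 to 38 and 1 to 19 genes, with 0 to 1, 0 to 1, 0 to 2 and 0 members. The 4 other forms of the 5% rule, computed after the data were seen, tested 10950 to 13244 genes. They gave 45 to 62 genes in WT versus EV, 73 to 95 in K56A versus EV and 7 in K56A versus WT. The members counted past the threshold in WT versus EV were 3 in 1 of these 4 forms, the share against the shared sum, and 4 in the others.

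The labels do not tie replicate numbers together. The correlation of replicate differences was 0.24 for DMSO with EPZ, which leans towards a shared effect of the number, and 0.03, -0.01 and -0.03 among EV, WT and K56A. With 2 replicates per group this does not settle pairing. With the replicate block, the counts were 2, 46, 53 and 3. In EPZ versus DMSO the limma adjusted p fell from 0.756 to 0.292 for DUSP1 and to 0.101 for FOSL1, and no member passed. In WT versus EV 3 members were counted in place of 4.

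Of 670 values for the members under alternatives, 615 kept direction and side of the threshold, 46 lost the call, 1 gained it and 8 changed sign. In EPZ versus DMSO, without DMSO replicate 1, SPRED1 was -0.22, TRIB1 -0.05 and CDK9 0.10, the low or high ends of ranges that reached 0.26, 0.17 and -0.13 without DMSO replicate 2, where DUSP6 was 0.03. Without EPZ replicate 2, SPRED1 was -0.17 and CDK9 0.05. SPRY2 was -0.04 without WT replicate 2 in WT versus EV. Without K56A replicate 1 it was 0.09 in K56A versus EV and 0.06 in K56A versus WT, against -0.34 and -0.37 without K56A replicate 2. With coding transcripts only, K56A versus EV gave -0.12 for SPRY4, -0.01 for DUSP22 and 0.02 for RASAL2. In K56A versus WT, DUSP18 was -0.05 and DUSP22 0.02 without K56A replicate 2 (-0.18 without K56A replicate 1), and DUSP18 was -0.01 without WT replicate 2. The DUSP5 to DUSP1 log2 ratio kept its sign throughout, at 0.20 to 0.29 in EPZ minus DMSO, 0.95 to 1.13 in WT minus EV, 1.29 to 1.41 in K56A minus EV and 0.21 to 0.40 in K56A minus WT. Depth is unknown, and 2 libraries per group limit precision.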

Other observations

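SPRY1, a Sprouty gene that is not among the 10, overlapped between EV and WT in summed level but not in 2 of its 3 listed transcripts, a pattern picked after the values were seen. In the EV and WT table, SPRY1-208 stood at 0.798 and 0.57 FPKM in EV and was listed at 0 in both WT libraries. SPRY1-201 was listed at 0 in both EV libraries and stood at 1.04 and 0.95 FPKM in WT, with adjusted p-values of 9.6e-05 and 5.0e-06 in the authors' deposited table. The third transcript overlapped, at 0 and 0.443 FPKM in EV and 0.133 and 0 in WT. The summed level in that table was 0.798 and 1.01 FPKM in EV and 1.17 and 0.95 in WT. The K56A table also lists SPRY1-202 and SPRY1-206, and there the same EV libraries summed to 1.36 and 1.11 FPKM. In it SPRY1-208 stood at 0.72 and 1.08 FPKM in K56A. All these values are low, and how well fragments were divided among the transcripts was not tested. SPRY1-201 is not in the K56A table, so the gene sum over shared transcripts (0.133 and 0 in WT) leaves it out, and SPRY1 was not among the genes tested in the knockdown lines.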
